A study of Mus musculus with 2 samples.

Results

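The CCN genes encode small cysteine-rich proteins that are secreted into the extracellular matrix and act there as matricellular signals rather than as structural fibers. Each protein is built from modules that resemble parts of insulin-like growth factor binding proteins, von Willebrand factor and thrombospondin, and all but WISP2 end in a cystine-knot module. The family signals mainly through integrins and heparan sulfate proteoglycans, binds growth factors such as BMP4, TGF-beta and VEGF, and is well known for roles in wound repair, fibrosis and mechanical responses of mesenchymal cells. The 5 genes described here, of 37309 listed in the deposited table, were taken by symbol, and are Cyr61 (also called CCN1), Ctgf (CCN2), Nov (CCN3), Wisp1 (CCN4) and Wisp2 (CCN5). The remaining family gene, Wisp3 (CCN6), is given beside them for completeness.

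RNA sequencing was performed on intestinal subepithelial myofibroblasts (ISEMFs), cultured mesenchymal cells that underlie the crypts of the small intestine. One group, called supportive, was grown from 5-day-old neonatal wild type C57BL/6 mice and sustains enteroid growth without added R-spondin. The other group, called non-supportive, was grown from 2-month-old adult C57BL/6 mice and sustains that growth only weakly. Both groups were grown in the same serum-containing medium with insulin, transferrin and EGF, no gene was altered in either, and each is represented by 1 library. Population, age of the mice and isolation therefore cannot be told apart, names in the deposited table may carry different culture passages, and no difference below has a replicate check.

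Reads counted on genes numbered 50674472 for supportive and 49615497 for non-supportive ISEMFs. Values are RPKM, the reads of a gene scaled to the length of its exons in kilobases and to the size of the library. Ratios are of supportive over non-supportive ISEMFs, and their 95% exact (Clopper-Pearson) intervals cover counting error only, since each population has 1 library. Reads amplified by PCR are not independent molecules, so even that error can be understated. Log2 ratios were taken after 0.1 was added to each RPKM, so differences of weakly expressed genes are understated. With 1 library per population no p-value was computed. Genes reaching an RPKM of 1 in one library or both are termed expressed, and an expressed gene was called different at a 2-fold difference on that log2 scale.

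All 5 CCN genes were expressed and had higher levels in supportive ISEMFs, and the difference was smallest in those with the highest levels. The most abundant pair, Ctgf and Cyr61, differed by less than 2-fold, while Wisp1, Nov and Wisp2 were 2.27-fold, 3.87-fold and 31.0-fold higher. Thus 3 of the 5 genes passed the 2-fold threshold and all 3 were higher in supportive ISEMFs. Over all 10086 expressed genes, 18.3% passed it, with 9.01% higher and 9.27% lower. The median log2 ratio was 1.18 over the CCN genes and -0.07 over all expressed genes, of which 44.7% had a ratio above 0.

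**Figure D1:**
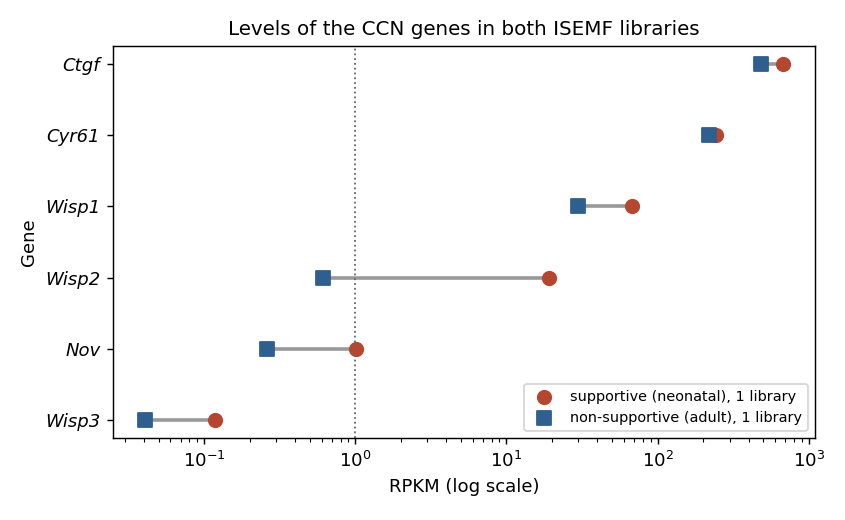
Levels of the 6 CCN genes in RPKM (log axis) in the supportive library (circles) and the non-supportive library (squares), 1 library each, with a dotted line at an RPKM of 1. Ctgf and Cyr61 lie at 219 or above in both libraries, and the widest gap is that of Wisp2, from 0.613 to 19.01.

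Ctgf, known as a target of TGF-beta and of YAP/TAZ in fibroblasts and as a driver of matrix production, was the most abundant member in both libraries. The gene occupies chr10:24315248-24318489 of mm9, plus strand, with 4 blocks of exons. Ctgf reads numbered 120258 in supportive and 83337 in non-supportive ISEMFs, which corresponds to RPKM values of 676 and 482. Among the 22379 protein-coding genes listed, that placed Ctgf at rank 11 and at rank 23. The supportive value was 1.40-fold the other, with an interval of 1.39 to 1.41, and the log2 ratio was 0.49. A long noncoding gene on the opposite strand, Gm15270, overlaps the Ctgf locus over 1667 bases and held 461 and 168 reads. The counting was not stated to use strand, and the authors left out reads that could not be given to a single gene. Without strand, reads in exons shared by both genes would be missing from the Ctgf count. The reads assigned to Gm15270 do not measure such a loss.

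Cyr61, an immediate-early gene of growth factor and mechanical stimulation whose product binds integrins, came second. Its locus is chr3:145309935-145312949 (mm9, minus strand), with 5 blocks of exons. The library of supportive ISEMFs held 35405 Cyr61 reads and that of non-supportive ISEMFs 30896, giving levels of 244 and 219 RPKM at ranks 46 and 68. Of the 5 genes, Cyr61 was the closest to equal in both libraries, with a ratio of 1.11 (1.10 to 1.13) and a log2 ratio of 0.16.

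Cyr61 is a textbook target of TEAD factors, the DNA-binding partners of YAP and TAZ, and 1 of the 5 genes matched the RefSeq promoter table (GRCm38.p6). The 250 bases before its start are shown, and their relation to the TEAD gene levels given below was not tested. These 250 bases lie at chr3:145649986-145650235 on the minus strand. Capitals mark, in order, a match to the TEAD motif, to the core of the cyclic AMP response element and to the TATA box.
Cyr61 promoter: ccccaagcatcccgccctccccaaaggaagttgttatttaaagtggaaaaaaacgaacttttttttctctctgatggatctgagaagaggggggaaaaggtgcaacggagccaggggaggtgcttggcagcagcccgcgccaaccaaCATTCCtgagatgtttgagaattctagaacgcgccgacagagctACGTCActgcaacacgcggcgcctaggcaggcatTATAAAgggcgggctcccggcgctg

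Motifs were searched on both strands and did not overlap. The TEAD motif GGAATG was matched once, on the opposite strand, with its first base 103 bases before the start, and it occurs in 12.6% of the 32851 promoter windows of that length in the table. The core TGACGT was matched once on the opposite strand, 59 bases before the start, and occurs in 6.47% of windows. The TATA box, TATAAA, was matched 25 bases before the start and occurs in 12.4% of windows. Neither the AP-1 motif TGANTCA (6.75% of windows), the TCF/LEF motif CTTTGAT (3.21%) nor the CArG box bound by SRF (1.47%) was matched in this window. A match is a description of letters, and no binding was measured.

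Wisp1, induced by Wnt signaling and expressed by activated fibroblasts and osteoblast precursors, was next in level. Its 6 blocks of exons span chr15:66722882-66754763 (mm9, plus strand). Wisp1 was counted 33670 times in supportive against 14418 times in non-supportive ISEMFs. Its RPKM values were 67.8 and 29.9, which were ranks 236 and 827, and its ratio of 2.27 had an interval of 2.23 to 2.31. The deposited length of 6950 bases is longer than the 5518 bases of Wisp1 exons in GENCODE vM1 and than the 5097 bases of its main coding transcript. With the latter length the levels were 92.4 and 40.7 RPKM, the place of Wisp1 below Cyr61 and above Wisp2 was the same, and the ratio does not depend on length.

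Wisp2, a Wnt-responsive gene of fibroblasts whose product lacks the C-terminal module and is known to oppose several effects of CTGF, had the largest difference of the family. Its 6 blocks of exons span chr2:163646597-163658882 (mm9, plus strand). The supportive culture gave 2841 Wisp2 reads and the non-supportive culture 89, so that an RPKM of 19.01 stood against one of 0.613. The gene moved from rank 9450 among protein-coding genes in the non-supportive to rank 1192 in the supportive library. The interval of the 31.0-fold ratio was 25.1 to 38.8, and the log2 ratio was 4.74. Among the 9110 expressed protein-coding genes, 0.373% had a larger log2 ratio.

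Nov, whose product binds integrins and Notch receptors and is known to restrain the growth of several mesenchymal cell types, was close to the limit of expression. Its locus is chr15:54577257-54585594 (mm9, plus strand, 5 blocks of exons). The supportive library held 207 Nov reads (RPKM 1.01) and the non-supportive one 52 (RPKM 0.261), at ranks 8481 and 10866. The ratio of 3.87 had an interval of 2.84 to 5.35, all of it above 2, and the log2 ratio was 1.62. With an RPKM just above 1 in a single library, Nov was the member just inside the threshold on expression, and with a pseudocount of 1 its log2 ratio was 0.67. Wisp3, at chr10:38870777-38883600 on the minus strand, was well below it. It was represented by 12 reads and 4 reads (RPKM 0.118 and 0.0406), and the interval of its ratio of 2.92, from 0.884 to 12.4, included 1, so a difference in Wisp3 was not detectable at this depth.

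**Figure D2:**
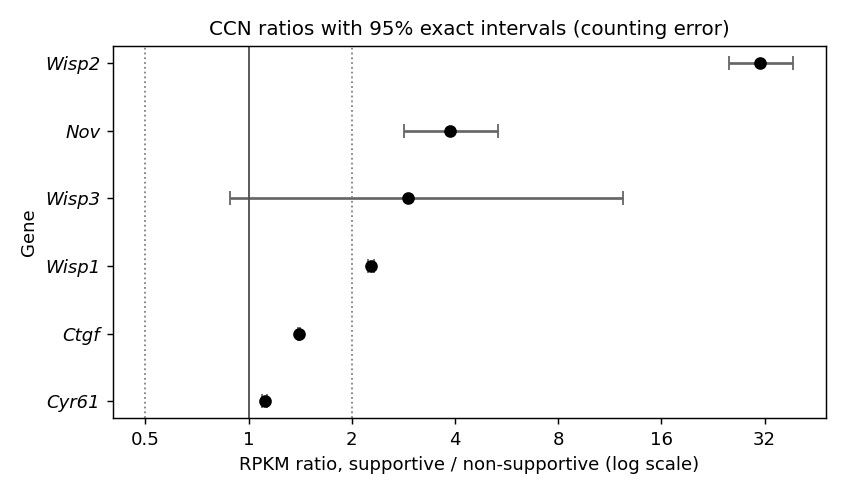
Ratio of RPKM, supportive over non-supportive (log axis), for each CCN gene, with bars for the 95% exact interval from the reads and dotted lines at 0.5 and 2. The intervals of Wisp2, Nov and Wisp1 lie wholly above 2, those of Ctgf and Cyr61 lie between 1 and 2, and that of Wisp3 crosses 1.

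The order of levels was Ctgf, Cyr61, Wisp1, Wisp2 and Nov in both libraries, with the deposited gene lengths and with coding transcript lengths. The latter put Wisp2 at 23.1 RPKM in supportive and 0.745 in non-supportive ISEMFs, so the size of a step depends on the lengths. With the deposited lengths, used below, every step in that order was larger than counting error. In supportive ISEMFs Ctgf was 2.77-fold above Cyr61, Cyr61 3.60-fold above Wisp1, Wisp1 3.57-fold above Wisp2, and Wisp2 18.8-fold above Nov. In non-supportive ISEMFs the same steps were 2.20-fold, 7.34-fold, 48.7-fold and 2.35-fold, the last with an interval of 1.65 to 3.37. The break in the order thus lay below Wisp1 in the non-supportive library and below Wisp2 in the supportive one. Summed over the 5 genes, the RPKM was 1008 in supportive and 732 in non-supportive ISEMFs, and their reads made 0.380% and 0.260% of those on genes. Ctgf and Cyr61 made up 91.3% of the summed RPKM in the former and 95.8% in the latter. Wisp2 supplied 1.89% of it in supportive but 0.0837% in non-supportive cells, and Wisp1 6.73% and 4.08%.

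**Figure D3:**
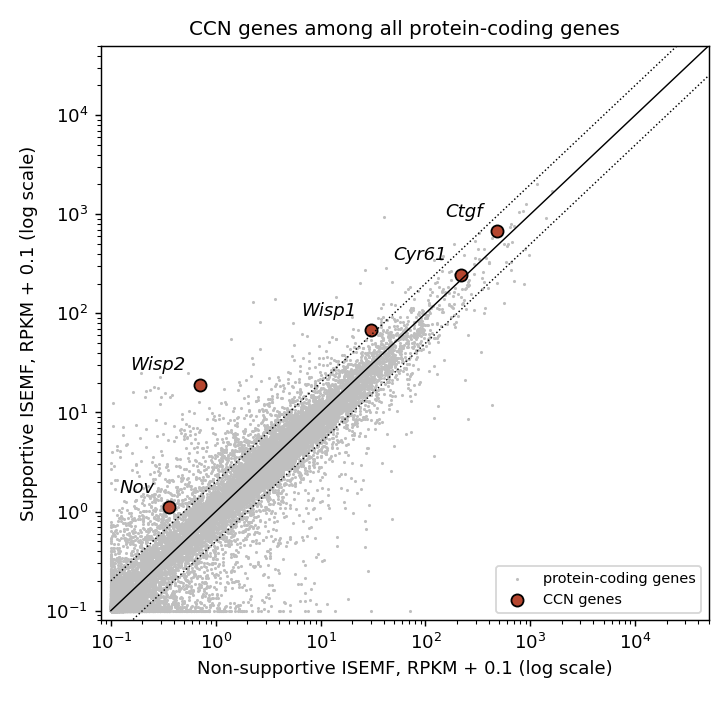
RPKM + 0.1 of each protein-coding gene (gray points) in non-supportive (horizontal, log axis) and supportive ISEMFs (vertical, log axis), with the CCN genes as large points, a solid line at equal levels and dotted lines at 2-fold. Ctgf and Cyr61 lie between the dotted lines near the top of the cloud, Wisp1 and Nov lie above the upper line, and Wisp2, at 19.01 against 0.613, lies farthest from it.

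The genes closest in their pair of levels were found by distance on the log2 scale in both libraries. The measure rests on 2 libraries and says nothing of shared control. Nearest to Wisp2 were Smoc1, a secreted calcium-binding matrix protein (18.6 and 0.654 RPKM, distance 0.09), and Col14a1, a fibril-associated collagen (18.0 and 0.665, distance 0.13). Nearest to Cyr61 was Rpl4, a ribosomal protein gene (238 and 219), followed by Lamp1, a lysosomal membrane protein (234 and 239). Nearest to Ctgf was the protease gene Ctsl (582 and 434, distance 0.26), then mt-Nd6 (752 and 641, distance 0.44), so the match was looser. Cryab (65.1 and 34.6, distance 0.22) and Reep3 (60.8 and 35.4, distance 0.29) were nearest to Wisp1. Cadm4 (1.05 and 0.267) and Zfp239 (0.957 and 0.279) were nearest to Nov.

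The proteins were compared through the coding sequences in GENCODE vM1. WISP2 was the shortest, with 251 residues, against 348 for CTGF, 354 for NOV, 367 for WISP1 and 379 for CYR61. It held 29 cysteines, against 38 to 40 in the other 4. Despite the missing end, its share of cysteine, 11.6%, was near the 10.03% to 11.3% of the others. CTGF and CYR61, the abundant pair, were the most alike, with 51.5% identical residues over the aligned positions, followed by CTGF and NOV with 50% and CYR61 and NOV with 47.7%. WISP1 and WISP2, which share a name, had 41.5% identity, and WISP2 was closer to NOV (45.9%). The genes with 2-fold differences were thus not the most similar in sequence.

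The CCN genes lie on 4 chromosomes, and their neighbours showed no common direction. Of the 20 protein-coding genes that are the nearest 2 on each side of a member, 11 were expressed. Of these, 2 were called higher and 2 lower in supportive ISEMFs, against 9.01% and 9.27% of all expressed genes. Next to Wisp1, Ndrg1, a stress-responsive gene 6.12 kb away, was at 4.55 and 0.884 RPKM, whereas St3gal1, a sialyltransferase gene on the same side, was at 2.13 and 6.32. Beside Ctgf, the ectonucleotidase gene Enpp3 was at 1.99 and 0.281, Enpp1 at 3.72 and 2.04, and Moxd1 at 0.735 and 1.69. Around Wisp2, levels were low, with Ada at 1.29 and 0.735, Pkig at 0.871 and 0.525, Kcnk15 without a read and Rims4 with 1 read in all. The 4 neighbours of Cyr61 were not called, and the expressed ones included Ddah1 at 69.5 and 92.9. Near Nov, Taf2 was at 17.3 and 14.1 and Enpp2 at 0.329 and 0.101.

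To place the family among its regulators, lists of genes were compared by the same 2-fold rule (called higher or lower in supportive ISEMFs), and the lists share some genes. Over all expressed genes, 9.01% were called higher and 9.27% lower, the shares to set beside the count of each list. YAP and TAZ are coactivators held in check by the Hippo kinases, and they switch on Ctgf and Cyr61 through TEAD factors. Of 19 genes of this pathway 18 were expressed, and 0 differed by 2-fold. Yap1 was at 21.0 RPKM in supportive and 23.6 in non-supportive ISEMFs, and Wwtr1, which encodes TAZ, at 24.2 and 22.8. Tead1, the most abundant TEAD gene, was at 16.9 and 31.2. The cofactor gene Vgll3 was at 35.3 and 54.4. The median log2 ratio of these genes was -0.32.

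Known YAP/TAZ targets other than the CCN genes were mostly lower in supportive ISEMFs, while Ctgf and Cyr61 were higher by less than 2-fold. Of the 20 other targets 19 were expressed, and 11 were called lower and 1 higher, against 9.27% and 9.01% of all expressed genes. Ankrd1, a muscle ankyrin repeat gene often read as a YAP/TAZ reporter beside Ctgf and Cyr61, was at 199 RPKM in supportive and 872 in non-supportive ISEMFs, which was 4.39-fold lower (interval 4.33 to 4.45). Foxf2, a forkhead factor of gut mesenchyme, was at 0.379 and 5.59. Igfbp3 had no read against 398, at least 110.5-fold lower by its 95% exact interval. Crim1, a membrane regulator of BMPs that carries cysteine-rich repeats, was at 77.2 and 160. The single gene on the higher side was Gadd45a, a stress response gene, at 46.9 and 9.57 RPKM. The median log2 ratio was -1.05, and the count of lower genes was 8 to 10 under the other library scalings.

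SRF and its MRTF coactivators (Mkl1 and Mkl2) also drive Ctgf and Cyr61. Of the 15 expressed genes of this list, 3 were called lower and 1 higher, with a median log2 ratio of -0.64. The log2 ratio was below 0 in 14 of them and above 0 in 1. Tpm1 and Cnn1, encoding proteins of the contractile apparatus, were at 101 and 363 RPKM and at 78.6 and 187. Mkl1 was at 1.73 and 3.70, and Srf itself at 11.7 and 21.3. The immediate-early factor Egr1 stood on the other side, 8.54-fold higher at 202 and 23.6 (interval 8.30 to 8.79). Acta2, the gene of α-SMA, was at 908 and 1410.

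TGF-beta is the best known inducer of Ctgf, and most of its 18 listed genes were not called. All 18 were expressed, with 2 called higher (11.1%) and 2 lower (11.1%), against 9.01% and 9.27% of all expressed genes. The median log2 ratio was 0.06, with 11 genes above 0 and 7 below. Among the ligands, Tgfb3 was at 91.8 RPKM in supportive and 39.6 in non-supportive ISEMFs and Tgfb2 at 5.03 and 15.1, while Tgfb1 was at 3.15 and 2.93 with an interval of its ratio, 0.959 to 1.20, that included 1. The response gene Tgfbi, encoding a secreted matrix protein, was 4.85-fold higher at 7.21 and 1.49. Fn1, encoding fibronectin, was at 1087 and 850.

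Wisp1 and Wisp2 take their name from induction by Wnt. Of 15 target genes of Wnt and beta-catenin, 6 were expressed, of which 1 was called higher and 2 lower, and the median log2 ratio was -0.37. Axin2, the target common to most tissues, had 7 reads in supportive and 3 reads in non-supportive ISEMFs, and Sp5 had none. Also below an RPKM of 1, Nkd1 had 182 and 13 reads, and Nkd2 had 97 and 271. With no minimum RPKM, 2 genes of this list were called higher and 3 lower. Lgr5, the R-spondin receptor, was at 7.22 and 0.00443 RPKM, with 6702 and 4 reads. Cd44, a hyaluronan receptor, was at 13.0 and 71.9, and Apcdd1, a Wnt inhibitor, at 0.274 and 1.35. Ccnd1, encoding cyclin D1, was at 175 and 146.

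CCN proteins signal through integrins and their partners, and here the 18 receptor genes went both ways. Of the 13 expressed, 2 were called higher and 4 lower. Itgb1, the β subunit shared by most matrix integrins, was at 272 RPKM in supportive and 658 in non-supportive ISEMFs, and Itga5, its partner in the fibronectin receptor, at 14.4 and 47.4. Itga6, a subunit of the integrin that binds CYR61 on fibroblasts, was at 0.983 and 8.54, and Itgam, an integrin of myeloid cells, had no read against 1070. On the higher side were Itgb5, at 21.1 and 9.33, and Lrp1, the endocytic receptor that takes up CTGF, at 38.3 and 15.8. Itgav and Itgb3 differed by less than 2-fold, at 37.5 and 44.4 and at 15.7 and 15.2. The coreceptor Sdc4 was at 68.3 and 39.3.

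Among matrix proteins and growth factors that bind CCN proteins, 10 of 16 were expressed, with 3 called higher and 1 lower. Bmp4, which CTGF can bind and block, was 16.8-fold higher at 35.6 and 2.12 (interval 15.4 to 18.4). Bmp2 lay on the other side, with no read against 234, but at 0.948 RPKM was below the limit of expression. Dcn, encoding decorin, a partner of WISP1 and CTGF, was at 124 and 46.5, and Igf1 at 2.73 and 1.16. Bgn, encoding biglycan, was at 641 and 325, a difference just under the 2-fold threshold. Slit3 was the lower gene, at 0.0723 and 1.13. Vegfa, which CTGF sequesters, was at 14.9 and 21.5.

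Of 14 genes of matrix proteases, several of which can cut CCN proteins, 9 were expressed, with 3 called higher and 2 lower. Adamts1, Mmp2 and Mmp14 were higher in supportive ISEMFs, at 47.9 and 5.46, at 68.5 and 22.6 and at 86.0 and 42.6 RPKM. Mmp13 was at 0.0209 and 4.34, and Mmp9 had no read against 387 in the non-supportive library.

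**Figure D4:**
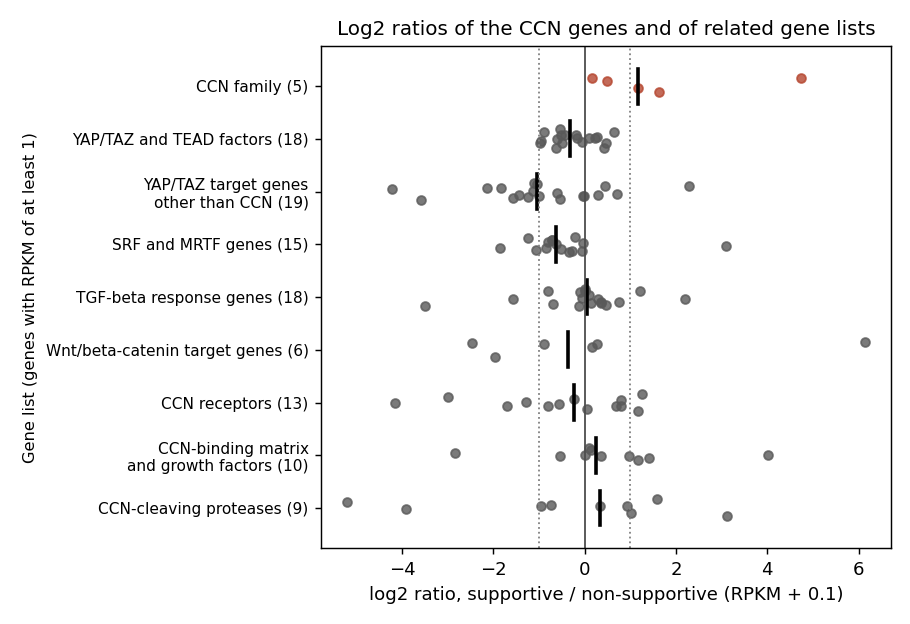
Log2 ratio, supportive over non-supportive, of each expressed gene in the CCN family and in 8 related lists (number of genes in parentheses), with a thick bar at each median and dotted lines at 2-fold. The CCN genes all lie above 0 with a median of 1.18, while the other YAP/TAZ targets have a median of -1.05, with 11 genes at or beyond the lower line.

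The cultures carried the myofibroblast pattern of high Acta2 and Vim, the latter at 325 and 407 RPKM, and low Des, at 0.575 and 3.40. Markers of other cells differed between the libraries beside the CCN genes. The 9 macrophage genes summed to 9.46 RPKM in supportive and 128 in non-supportive ISEMFs. All 8 expressed ones were called lower in the former, where Tyrobp, Emr1, Itgam and Ptprc had no read. The 6 smooth muscle genes summed to 329 and 471, most of it from Actg2 at 247 and 292, and their members went opposite ways. Myh11, the smooth muscle myosin heavy chain gene, was 4.11-fold lower at 26.3 and 108, and Synm was 16.2-fold higher at 1.22 and 0.0753. The 6 glial and neuronal genes summed to 8.67 and 3.71, with S100b called higher at 6.69 and 0.116, Tubb3 at 1.92 and 3.52, and Sox10 without a read. Of 7 endothelial genes 0 reached an RPKM of 1, and of 10 epithelial genes Lgr5 alone did, with Epcam at 0 and 5 reads. Mitochondrial genes took 14.6% of gene reads in supportive and 7.85% in non-supportive ISEMFs. Fewer cells of a type and less RNA per cell cannot be told apart in such cultures, and the part of these differences in the CCN values was not tested, except that without mitochondrial reads in the library totals, which moved the median over all expressed genes from -0.07 to 0.05, the log2 ratios of the CCN genes ran from 0.28 for Cyr61 to 4.86 for Wisp2.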

How the data were processed

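Libraries were prepared from mRNA of each ISEMF population with the TruSeq RNA Sample Kit and sequenced as single-end reads on an Illumina HiSeq. The authors aligned reads to mm9 with TopHat (TopHat2 2.0.4 in the submitters' processing notes), keeping unique hits, and counted reads per gene with HTSeq 0.5.4p3. The counts deposited by the authors are raw reads per gene, and the RPKM values deposited by the authors are those counts divided by the length of the union of exons in kilobases and by the library size. The deposited log2 ratio and DESeq p-values of the authors' comparison were not used, nor was their Wnt pathway table, whose 209 rows repeat the table of all genes.

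Ratios, exact intervals and 2-fold calls were computed over all genes, and the steps were tested on simulated data. Variation between cultures cannot be estimated from single libraries, so no count test was run, and edgeR and DESeq2 gave scaling factors alone. A gene without reads can make up to 5.92e-06% of supportive and 6.05e-06% of non-supportive gene reads, the share of 3 reads. The members and the gene lists were chosen with earlier results of these data known. Genes named were taken from the members, Wisp3, the 2 protein-coding neighbours on each side, the 2 genes nearest in level, the myofibroblast markers, of every other list the 3 past 2-fold with the largest and the 3 with the smallest log2 ratio and the 2 most abundant, and receptors, binding partners and YAP/TAZ factors whose role is described. Amot, Stk4, Srf, Tgfb1, Axin2, Sp5, Nkd1, Nkd2, Bmp2, Gm15270 and markers of other cells without reads were named after their values were seen. Some genes that this rule names are not reported here. Mob1a and Mob1b were matched by Ensembl identifier. Alternatives were other pseudocounts, minimum levels, fold thresholds, library scalings and, added after the data were seen, transcript lengths. Scaling used edgeR 4.0.16 and DESeq2 1.42.0 in R 4.3.3, and other steps scipy 1.17.1, numpy 2.4.6, pandas 2.3.3, Biopython 1.88 and matplotlib 3.10.9 in Python 3.11.15. Positions are from GENCODE vM1 (mm9).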

Additional observations from a re-analysis of the deposited data

How the results depend on the processing

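All 5 CCN genes were higher in supportive ISEMFs under each of the 6 alternatives for pseudocount and scaling, and 0 were called lower under any alternative. The count of higher genes stayed at 3 except for 2 with a pseudocount of 1, where the log2 ratios of Wisp2 and Nov were 3.63 and 0.67, 2 with a minimum RPKM of 5, and 1 at a 4-fold threshold, which Wisp2 alone passed. The log2 ratios of Cyr61, Ctgf and Wisp1 were 0.21, 0.54 and 1.24 with TMM library sizes, 0.20, 0.53 and 1.22 with DESeq2 size factors, 0.28, 0.61 and 1.30 with totals without mitochondrial genes, and 0.23, 0.56 and 1.25 with the median log2 ratio set to 0. These shifts exceed counting error alone. Over all genes, counts higher and lower moved from 909 and 935 to 578 and 621 with a pseudocount of 1, 412 and 466 with a minimum RPKM of 5, 1775 and 1885 with no minimum, and 327 and 332 at 4-fold, because fewer or more genes qualify. Among other YAP/TAZ targets, the 11 lower genes became 8 to 10 under the other scalings and 3 at 4-fold. No paired analysis was possible because each population has 1 library, so leaving out a library was not possible either. Depth limits the values of Nov and Wisp3, and variation between cultures is unknown.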
